A study of Saccharomyces cerevisiae with 15 samples.

Results

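The genes of sterol synthesis, uptake and esterification were followed through the response of the wine yeast QA23 to hydrogen peroxide and melatonin. The set was a given list of 37 genes, and each was found by its systematic name among the 6224 genes with a probe on the arrays. It held 10 genes of the early pathway from acetyl-CoA to squalene, 15 genes of the late pathway from squalene to ergosterol, 3 transcriptional regulators, 2 uptake transporters, 2 sterol acyltransferases, 3 steryl ester hydrolases and 2 oxysterol-binding proteins.

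QA23 is a commercial *Saccharomyces cerevisiae* strain, grown here in YPD broth with shaking. H cells received no melatonin and then 2 mM H2O2 for 1 h, 5MelH cells 5 μM melatonin before the same stress, and 25MelH cells 25 μM melatonin before it. 5Mel cells had 5 μM melatonin and 0 mM H2O2, and Control cells had neither, harvested after the same 1 h. Total RNA of 3 cultures per condition, which the study calls biological replicates, was labelled with a single dye and each culture was hybridised to its own array, 15 in all.

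Ergosterol is the main sterol of yeast membranes. Its synthesis starts with the mevalonate steps, of which HMG-CoA reductase is the controlling one, and several of its late steps use molecular oxygen and haem. Yeast makes its own sterol in air and takes sterol up only when oxygen or haem is short, and surplus sterol is kept as esters in lipid droplets.

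The deposited matrix of normalised values did not match the scanner tables by name. Of its 15 columns, 6 equalled the scanner table of the sample they were named for and 9 equalled that of another, the columns named 5Mel, H and 5MelH holding the scanner values of 5MelH, 5Mel and H. The scanner tables with their own labels are used below. With these labels the peroxide-response genes *SRX1*, *TSA2*, *TRX2*, *GPX2* and *OYE3* were all called higher in both stress comparisons, H vs. Control and 5MelH vs. 5Mel, by 0.86 to 3.73 on the log2 scale. As H and 5MelH cells were both stressed, these genes cannot tell H from 5MelH. That assignment, and with it the sign of 5MelH vs. H, rests on the scanner labels and on the directions the study reports. The study lists *ARE2*, *ERG11*, *SWH1* and *UPC2* as downregulated by melatonin in stressed cells, and more genes up than down. With the scanner labels these genes changed by −0.15, −0.19, −0.042 and −0.20 in 5MelH vs. H. At an unadjusted p under 0.05 in limma, 498 genes were higher and 280 lower there. Swapped labels would turn these signs. The study used the same arrays, so its directions are no independent test of the labels. The 9 stressed arrays were dimmer, with a 75th percentile of 2274 to 3552 signal units, against 4186 to 5922 on the 6 unstressed arrays. Replicate arrays had an r of 0.992 to 0.997 over genes, and genes are not independent.

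A level below is the log2 signal of a gene minus the 75th percentile of its array, and the mean levels of 2 conditions, each over 3 arrays, give the log2 change and its standard error (SE). A gene is called higher or lower where the p from limma, after Benjamini-Hochberg adjustment over all 6224 genes, fell under 0.05. Levels are therefore relative to the bulk of genes on the same array. The median change of all genes on this scale was −0.09 for H vs. Control and −0.05 for 5MelH vs. 5Mel, against −1.51 and −1.06 when the arrays were scaled to spiked-in RNA and 0.17 in both when they were centred on their median. On the spiked-in scale 0 members were higher and 35 lower in H vs. Control, and 2 were higher and 24 lower in 5MelH vs. 5Mel. Of all 6224 genes, 20 were higher and 5936 lower there in H vs. Control, and 48 and 5230 in 5MelH vs. 5Mel. What lies behind the shift on the spiked-in scale was not tested, so higher and lower are meant relative to the other genes. All 37 members were well above background on all 15 arrays except *HES1*, which was so on 12 of 15.

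Under hydrogen peroxide most genes that make sterol stood higher, relative to the bulk of genes and not on the spiked-in scale. The uptake transporters were called lower under each scaling, while fewer of the regulators and ester hydrolases were called lower under some scalings, as given with each gene. In H vs. Control, 21 of the 37 members were called higher and 12 lower, where 68.4% of all genes were called, 27.2% higher and 41.2% lower. The median change of the members was 0.28. In 5MelH vs. 5Mel, 16 members were higher and 13 lower, where 52.9% of all genes were called, 21.9% higher and 31% lower, and the median of the members was 0.20. With arrays centred on their median, 23 were higher and 9 lower in H vs. Control, and 22 higher and 6 lower in 5MelH vs. 5Mel. That scaling called 2722 of 6224 genes higher and 1687 lower in H vs. Control, and 2287 and 1307 in 5MelH vs. 5Mel. These comparisons have no array in common. Between them, 16 members were higher in both, 11 were lower in both and 0 were called in opposite directions. Over all 6224 genes, 1127 were higher in both, 1825 lower in both and 2 opposite. *ERG28* and *ECM22* were called in neither.

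**Figure D1:**
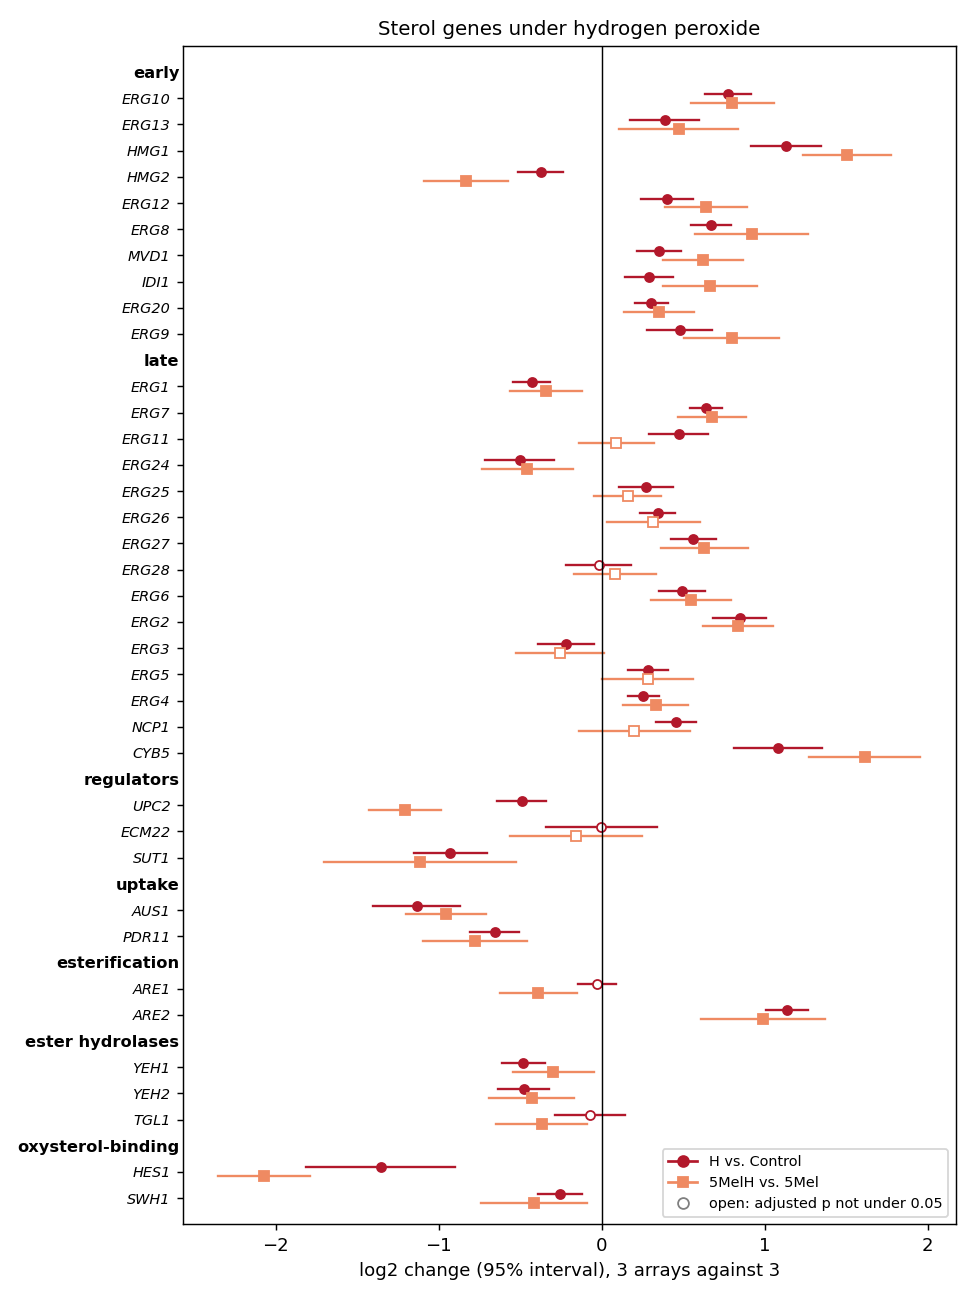
Log2 change of each of the 37 sterol genes, with its 95% interval, in H vs. Control (circles) and 5MelH vs. 5Mel (squares), 3 arrays against 3, ordered by role from the early pathway at the top. Early genes but *HMG2* lie right of 0 and uptake genes left of it, relative to the 75th percentile of each array. On the spiked-in scale 0 of the 37 values lie right of 0 in H vs. Control, and 2 do so in 5MelH vs. 5Mel.

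Of the 10 early genes, 9 were called higher in both stress comparisons and *HMG2* lower in both, with a median change of 0.39 in H vs. Control and of 0.65 in 5MelH vs. 5Mel, while on the spiked-in scale the medians were −1.03 and −0.36. *HMG1* and *HMG2* encode the isoenzymes of HMG-CoA reductase, the first used mainly in air and the second known for its role at low oxygen. *HMG1* (YML075C) had levels of 1.96, 1.92 and 2.06 on the H arrays, against 0.98, 0.87 and 0.69 on the Control arrays. It had 2.03, 2.19 and 1.91 in 5MelH and 0.46, 0.68 and 0.47 in 5Mel. Every stressed array lay above every unstressed one, and the changes were 1.13 (SE 0.087, adjusted p = 0.000127) and 1.51 (SE 0.11, adjusted p = 7.73e-05).

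*HMG2* (YLR450W) went the other way. Its levels were 0.43, 0.43 and 0.48 in H and 0.92, 0.75 and 0.80 in Control, and those of 5MelH were 0.43, 0.62 and 0.40, against 1.27, 1.23 and 1.44 in 5Mel. The groups did not overlap, and the changes were −0.37 (SE 0.056, adjusted p = 0.00175) in H vs. Control and −0.83 (SE 0.11, adjusted p = 0.000845) in 5MelH vs. 5Mel. With arrays centred on their median the first was −0.12 and was not called (adjusted p = 0.0891).

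The difference between the *HMG1* and *HMG2* levels within an array does not depend on any scaling that shifts a whole array. As the genes have different probes, only its change between conditions can be read. It averaged 1.53 ± 0.051 in H, 1.56 ± 0.043 in 5MelH and 1.60 ± 0.057 in 25MelH, against −0.78 ± 0.22 in 5Mel and 0.024 ± 0.12 in Control (SD, n = 3 each). The means of the stressed conditions differed by at most 0.070, and the 5Mel arrays, at −0.81, −0.55 and −0.98, lay below the Control arrays, at 0.058, 0.12 and −0.11. These pair differences are given without a test.

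**Figure D2:**
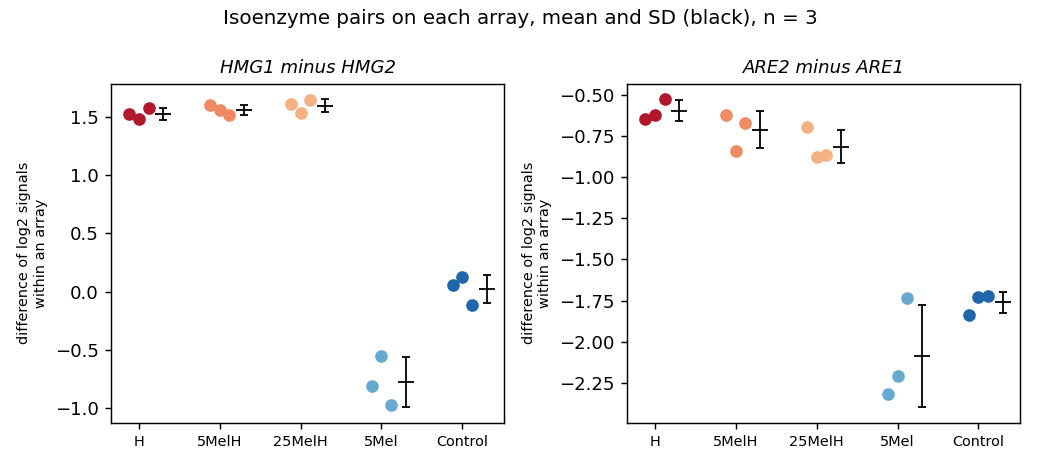
Difference of log2 signals within an array for *HMG1* minus *HMG2* (left) and *ARE2* minus *ARE1* (right) on the arrays of H, 5MelH, 25MelH, 5Mel and Control, with the mean and SD in black (n = 3 each). Both differences are higher on all 9 stressed arrays than on all 6 unstressed ones, and a scaling that shifts a whole array leaves them as they are.

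*ERG10* encodes acetyl-CoA C-acetyltransferase, the first step of the pathway, and *ERG8* phosphomevalonate kinase. *ERG10* (YPL028W) had levels of 3.95, 4.0 and 3.83 in H and 3.11, 3.16 and 3.18 in Control, a change of 0.78 (SE 0.057, adjusted p = 0.000105). In 5MelH they were 4.05, 3.82 and 3.81, against 3.06, 3.02 and 3.19 in 5Mel, a change of 0.80 (SE 0.11, adjusted p = 0.000959). The stressed and unstressed arrays were again separate. *ERG8* (YMR220W) had 1.78, 1.80 and 1.86 in H and 1.09, 1.21 and 1.13 in Control, and 1.85, 1.81 and 1.86 in 5MelH against 0.67, 0.86 and 1.23 in 5Mel. Its changes were 0.67 (SE 0.049, adjusted p = 0.000105) and 0.92 (SE 0.15, adjusted p = 0.00213), and the 5Mel arrays were the most spread, with an SD of 0.28. On the spiked-in scale *ERG10* and *ERG8* were called lower in H vs. Control, at −0.64 and −0.75, and had −0.21 (adjusted p = 0.353) and −0.090 (adjusted p = 0.692) in 5MelH vs. 5Mel.

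The other early genes called higher were *ERG13* (HMG-CoA synthase), *ERG12* (mevalonate kinase), *MVD1* (mevalonate pyrophosphate decarboxylase), *IDI1* (isopentenyl diphosphate isomerase), *ERG20* (farnesyl pyrophosphate synthetase) and *ERG9* (squalene synthase). Their changes ran between 0.29 for *IDI1* and 0.48 for *ERG9* in H vs. Control, and between 0.35 for *ERG20* and 0.80 for *ERG9* in 5MelH vs. 5Mel. *IDI1* was at 2.16 on each of the H arrays, against 1.96, 1.88 and 1.76 on the Control arrays. After quantile normalization *ERG13* was not called in either comparison (adjusted p of 0.117 and 0.140), *IDI1* not in H vs. Control (0.127) and *ERG20* not in 5MelH vs. 5Mel (0.0599). In 5MelH vs. 5Mel *ERG13* also lost its call without 5Mel replicate 1 or 2 or any 1 of the 5MelH arrays (adjusted p of 0.0644 to 0.0967), and *ERG20* without 5MelH replicate 1 (0.0676).

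Of the 15 late genes, 11 were called higher and 3 lower in H vs. Control and 6 higher and 2 lower in 5MelH vs. 5Mel, with medians of 0.34 and 0.28, against −1.08 and −0.73 on the spiked-in scale. With arrays centred on their median the split was 12 higher and 2 lower in H vs. Control, and 12 higher and 0 lower in 5MelH vs. 5Mel. Over all 6224 genes that scaling gave 2722 higher and 1687 lower, and 2287 higher and 1307 lower. *ERG11*, *ERG25*, *ERG26*, *ERG3*, *ERG5* and *NCP1* were called in H vs. Control alone. For none of these 6 did the test of the difference between the comparisons pass, and only *ERG11* had an unadjusted p under 0.05 in it.

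*CYB5* encodes cytochrome b5, an electron donor to several sterol and lipid oxidations. *CYB5* (YNL111C) had levels of 1.63, 1.65 and 1.59 in H, against 0.75, 0.54 and 0.32 in Control. It had 1.81, 1.76 and 1.53 in 5MelH and 0.06, 0.34 and −0.13 in 5Mel. Every stressed array lay above every unstressed one, and the changes were 1.08 (SE 0.11, adjusted p = 0.000357) and 1.61 (SE 0.15, adjusted p = 0.000163).

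*ERG2* encodes the C-8 sterol isomerase and *ERG7* lanosterol synthase, which closes the sterol rings. *ERG2* (YMR202W) had 4.24, 4.29 and 4.20 in H and 3.32, 3.52 and 3.35 in Control, and 4.33, 4.34 and 4.21 in 5MelH against 3.46, 3.50 and 3.40 in 5Mel. The changes were 0.85 (SE 0.066, adjusted p = 0.000133) and 0.84 (SE 0.091, adjusted p = 0.000356). *ERG7* (YHR072W) had 3.01, 2.99 and 3.02 in H and 2.39, 2.39 and 2.32 in Control, and 2.98, 2.99 and 3.00 in 5MelH against 2.24, 2.31 and 2.39 in 5Mel, with changes of 0.64 (SE 0.040, adjusted p = 6.11e-05) and 0.68 (SE 0.089, adjusted p = 0.000845). For both genes the stressed and unstressed arrays were separate and the 2 comparisons gave like sizes.

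*ERG6* encodes the C-24 sterol methyltransferase, a step that animals lack. It had 2.77, 2.81 and 2.74 in H and 2.38, 2.21 and 2.25 in Control, and 2.83, 2.82 and 2.68 in 5MelH against 2.36, 2.20 and 2.12 in 5Mel. The changes were 0.49 (SE 0.057, adjusted p = 0.000629) and 0.55 (SE 0.10, adjusted p = 0.00450). *ERG27* (3-keto sterol reductase) and *ERG4* (the last reductase of the pathway) were also higher in both, by 0.56 and 0.26 in H vs. Control and by 0.63 and 0.33 in 5MelH vs. 5Mel. After quantile normalization *ERG4* was called in neither (adjusted p of 0.292 and 0.156), and in 5MelH vs. 5Mel it was not called without 5MelH replicate 1 (0.0512) or 3 (0.0641).

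*ERG11* encodes lanosterol 14α-demethylase, a cytochrome P450 that uses oxygen and haem and is the target of azole drugs. *ERG11* (YHR007C) had levels of 3.73, 3.76 and 3.59 in H, against 3.32, 3.23 and 3.12 in Control, a change of 0.47 (SE 0.073, adjusted p = 0.00203). In 5MelH it had 3.57, 3.55 and 3.37, against 3.35, 3.46 and 3.43 in 5Mel, a change of 0.09 (SE 0.098, adjusted p = 0.465). The H and Control arrays were separate, while those of 5MelH and 5Mel overlapped. The difference between these changes was −0.38 (SE 0.11), with an adjusted p of 0.277 in limma, so it did not pass. *NCP1*, the reductase that serves *ERG11*, had changes of 0.46 and 0.20, *ERG5* (the C-22 desaturase, a further P450) 0.28 in both, *ERG25* and *ERG26*, of the C-4 demethylation steps, 0.27 and 0.16 and 0.34 and 0.32, each in H vs. Control and then in 5MelH vs. 5Mel. *ERG25* was not called in H vs. Control after quantile normalization (adjusted p = 0.223).

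*ERG1* (squalene epoxidase, the first oxygen-using step) and *ERG24* (C-14 sterol reductase) were called lower in both comparisons. *ERG24* had 0.20, 0.23 and 0.33 in H and 0.92, 0.71 and 0.64 in Control, and 0.26, 0.37 and 0.30 in 5MelH against 0.88, 0.88 and 0.55 in 5Mel. The stressed arrays lay below every unstressed one, with changes of −0.50 (SE 0.086, adjusted p = 0.00296) and −0.46 (SE 0.12, adjusted p = 0.0158). *ERG1* changed by −0.43 and −0.34. In 5MelH vs. 5Mel both lost their call with arrays centred on their median (adjusted p of 0.285 for *ERG1* and 0.112 for *ERG24*) and without 5MelH replicate 1 (0.0655 and 0.0597), and *ERG1* also without 5MelH replicate 2 (0.0747).

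*ERG3*, the C-5 desaturase, was called lower in H vs. Control at −0.22 (adjusted p = 0.0330), but had 0.037 (adjusted p = 0.657) with arrays centred on their median, and was not called without Control replicate 1 or 2 or H replicate 2 or 3 (adjusted p of 0.0700 to 0.103). It had −0.25 (adjusted p = 0.0989) in 5MelH vs. 5Mel. *ERG28*, a scaffold of the C-4 demethylation complex, had −0.02 and 0.08 and overlapping arrays in both.

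**Figure D3:**
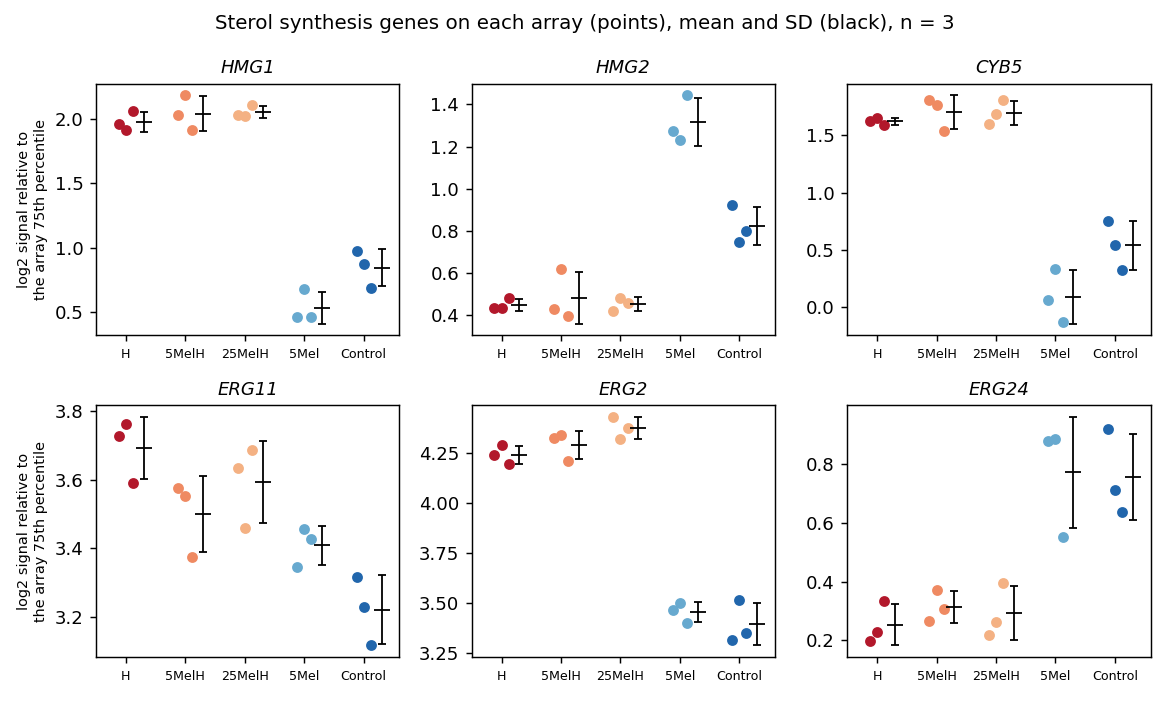
Log2 signal relative to the 75th percentile of the array for *HMG1*, *HMG2*, *CYB5*, *ERG11*, *ERG2* and *ERG24* on each array of H, 5MelH, 25MelH, 5Mel and Control, with the mean and SD in black (n = 3). *HMG1*, *CYB5* and *ERG2* stand higher and *HMG2* and *ERG24* lower on all stressed arrays. On the spiked-in scale *HMG1*, *CYB5* and *ERG2* have changes of −0.29, −0.34 and −0.57 in H vs. Control.

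*AUS1* and *PDR11* encode the ABC transporters that carry sterol into the cell when oxygen is short, and both were called lower in both stress comparisons under each scaling. *AUS1* (YOR011W) had levels of −4.01, −4.14 and −3.86 in H, against −2.69, −2.99 and −2.92 in Control, a change of −1.14 (SE 0.11, adjusted p = 0.000279). It had −3.91, −3.76 and −3.81 in 5MelH and −2.79, −2.81 and −3.01 in 5Mel, a change of −0.96 (SE 0.10, adjusted p = 0.000361). All stressed arrays lay below all unstressed ones. *PDR11* (YIL013C) had −2.84, −2.93 and −2.92 in H and −2.22, −2.34 and −2.16 in Control, and −3.14, −2.66 and −3.02 in 5MelH against −2.13, −2.16 and −2.19 in 5Mel. Its changes were −0.66 (SE 0.061, adjusted p = 0.000254) and −0.78 (SE 0.14, adjusted p = 0.00304), with a wider spread in 5MelH (SD 0.25) than in H (SD 0.050).

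*UPC2* and *ECM22* encode zinc-cluster activators of sterol genes, and *SUT1* a factor that favours sterol uptake. Of these, *UPC2* and *SUT1* were called lower in both comparisons, except that *UPC2* in H vs. Control had 0.10 after quantile normalization. *UPC2* (YDR213W) had levels of −3.51, −3.51 and −3.39 in H and −3.02, −3.03 and −2.89 in Control, a change of −0.49 (SE 0.061, adjusted p = 0.000797). It had −3.75, −3.60 and −3.66 in 5MelH, against −2.52, −2.38 and −2.49 in 5Mel, a change of −1.21 (SE 0.094, adjusted p = 8.48e-05). The 5MelH arrays were the lowest of these 4 conditions and the 5Mel arrays the highest, with no overlap between any of them. As *UPC2* was also picked for a small p in both melatonin comparisons, this order adds no support to a melatonin effect.

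*SUT1* (YGL162W) had −4.03, −4.16 and −3.96 in H and −2.96, −3.17 and −3.24 in Control, a change of −0.93 (SE 0.091, adjusted p = 0.000323). In 5MelH it had −4.55, −4.06 and −3.99, against −3.53, −3.10 and −2.62 in 5Mel, a change of −1.12 (SE 0.25, adjusted p = 0.00877). The groups were separate, although the 5Mel arrays had an SD of 0.45, and the second change was −0.56 and not called after quantile normalization (adjusted p = 0.151). *ECM22* had changes of −0.00 and −0.16, with overlapping arrays and SDs of 0.11 to 0.27 within conditions.

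*ARE1* and *ARE2* encode the acyl-CoA sterol acyltransferases, of which *ARE2* gives most of the activity in aerobic cells. *ARE2* (YNR019W) had levels of −1.0, −0.97 and −0.98 in H, against −2.20, −2.11 and −2.05 in Control, and a change of 1.14 (SE 0.051, adjusted p = 2.35e-05). It had −1.09, −1.14 and −1.16 in 5MelH and −2.27, −2.33 and −1.75 in 5Mel, a change of 0.99 (SE 0.16, adjusted p = 0.00229). Every stressed array lay above every unstressed one, but on the spiked-in scale the changes were −0.28 and −0.022.

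*ARE1* (YCR048W) had −0.35, −0.34 and −0.46 in H and −0.36, −0.38 and −0.32 in Control, which overlapped, with a change of −0.03 (SE 0.048, adjusted p = 0.613). It had −0.47, −0.30 and −0.49 in 5MelH, all below 0.05, −0.12 and −0.02 in 5Mel, with a change of −0.39 (SE 0.10, adjusted p = 0.0153). That call was lost with arrays centred on their median (adjusted p = 0.178) and without 5MelH replicate 1 (0.0631) or 3 (0.0607). The difference of *ARE2* minus *ARE1* within an array averaged −0.60 ± 0.063 in H, −0.71 ± 0.11 in 5MelH and −0.81 ± 0.10 in 25MelH, against −2.09 ± 0.31 in 5Mel and −1.76 ± 0.064 in Control (SD, n = 3 each). The mean of the pair difference was thus 1.17 higher in H than in Control and 1.38 higher in 5MelH than in 5Mel on the log2 scale.

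*YEH1*, *YEH2* and *TGL1* encode the lipases that release sterol from its esters. In H vs. Control *YEH1* and *YEH2* were called lower, and in 5MelH vs. 5Mel all 3 were, except that after quantile normalization *YEH2* had 0.012 and 0.069. *YEH1* (YLL012W) had −1.63, −1.69 and −1.71 in H and −1.26, −1.21 and −1.12 in Control, and −2.00, −1.89 and −1.76 in 5MelH against −1.52, −1.55 and −1.69 in 5Mel. Its changes were −0.48 (SE 0.053, adjusted p = 0.000528) and −0.30 (SE 0.11, adjusted p = 0.0492). *YEH2* (YLR020C) had −3.06, −3.15 and −3.11 in H and −2.53, −2.63 and −2.73 in Control, and −3.22, −3.23 and −3.12 in 5MelH against −2.64, −2.71 and −2.94 in 5Mel. Its changes were −0.48 (SE 0.063, adjusted p = 0.00101) and −0.43 (SE 0.11, adjusted p = 0.0158), with no overlap for either gene. *TGL1* had −0.07 (adjusted p = 0.477) and −0.37 (adjusted p = 0.0345).

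The calls of the hydrolases in 5MelH vs. 5Mel were not firm. With arrays centred on their median none of the 3 was called (adjusted p of 0.553 for *YEH1*, 0.132 for *YEH2* and 0.325 for *TGL1*). With the slide as a block *YEH1* (0.0971) and *TGL1* (0.0508) were not called. Without 1 array, *YEH1* lost its call in 5 of 6 cases (0.0573 to 0.172), *TGL1* in 5 of 6 (0.0509 to 0.118) and *YEH2* without 5MelH replicate 1 (0.0593) or 2 (0.0518).

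*HES1* and *SWH1* belong to the oxysterol-binding protein family, which moves sterols and other lipids between membranes. *HES1* (YOR237W) was the only member not well above background on every array. Its levels were −6.82, −6.19 and −6.33 in H, where 2 of 3 arrays were well above background, against −5.26, −5.11 and −4.91 in Control. They were −6.45, −6.20 and −6.45 in 5MelH, against −4.32, −4.14 and −4.42 in 5Mel. The stressed arrays were all below the unstressed ones, with changes of −1.36 (SE 0.18, adjusted p = 0.00117) and −2.07 (SE 0.12, adjusted p = 2.71e-05).

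*SWH1* (YAR042W) had 0.04, −0.01 and 0.07 in H and 0.30, 0.20 and 0.36 in Control, and −0.05, 0.03 and −0.00 in 5MelH against 0.30, 0.22 and 0.70 in 5Mel. The changes were −0.25 (SE 0.055, adjusted p = 0.00773) and −0.42 (SE 0.14, adjusted p = 0.0391), and the first was 0.0026 with arrays centred on their median. A dimmer probe for *SWH1*, which was not used, had −0.01 (SE 0.10) and −0.73 (SE 0.15), so the probes disagreed in H vs. Control. The change in 5MelH vs. 5Mel was not called with arrays centred on their median (adjusted p = 0.278), with the slide as a block (0.0736) or without 5Mel replicate 1 or any 1 of the 5MelH arrays (0.0538 to 0.112).

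**Figure D4:**
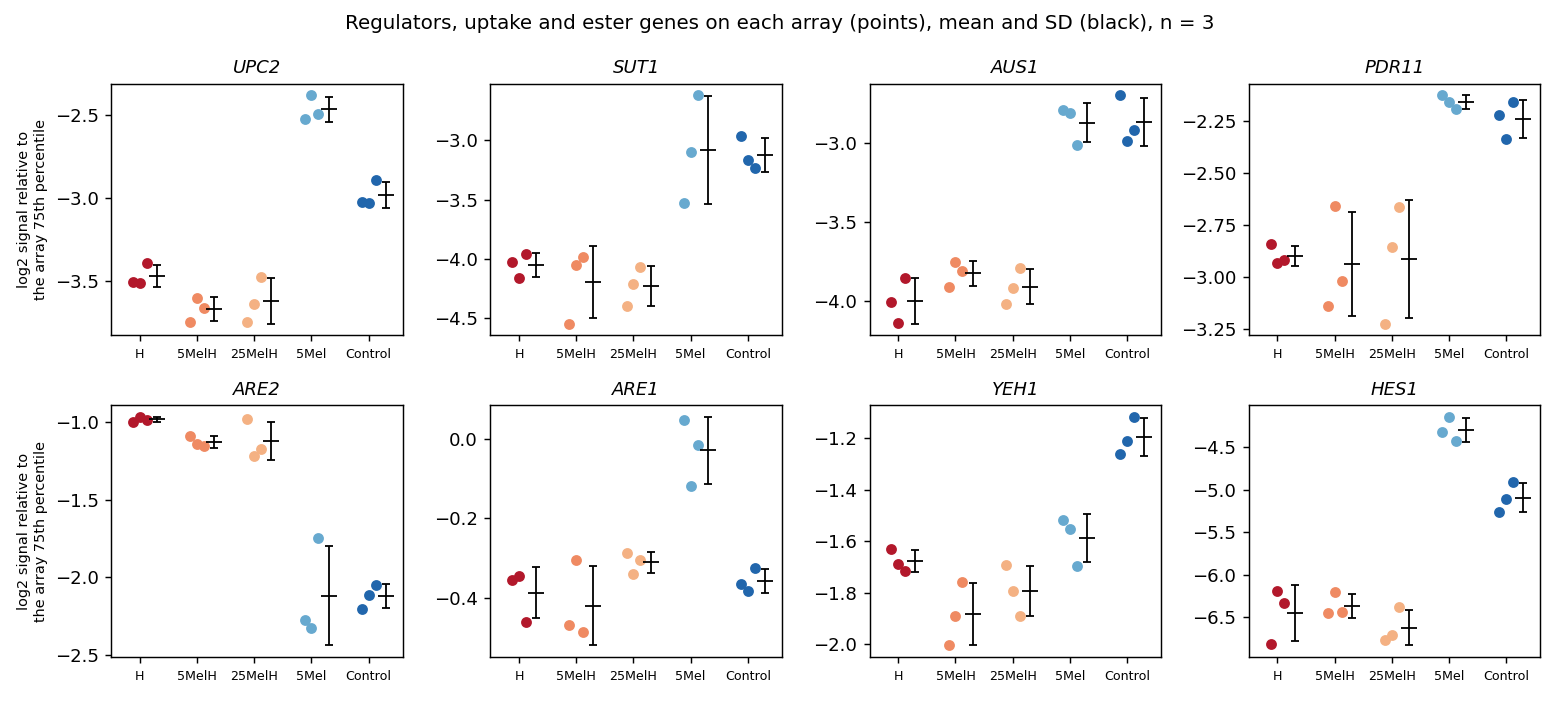
Log2 signal relative to the 75th percentile of the array for *UPC2*, *SUT1*, *AUS1*, *PDR11*, *ARE2*, *ARE1*, *YEH1* and *HES1* on each array of H, 5MelH, 25MelH, 5Mel and Control, with the mean and SD in black (n = 3). *UPC2*, *SUT1*, the transporters and *HES1* lie lower on the stressed arrays, and *ARE2* higher. *YEH1* lies lower in H than in Control and in 5MelH than in 5Mel, but its lowest 5Mel array lies among the H arrays. After quantile normalization *UPC2* has a change of 0.10 in H vs. Control, and on the spiked-in scale *ARE2* has −0.28.

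The comparison of 5Mel with Control asked what 5 μM melatonin did without stress. Of the 37 members 0 were called, where 0.353% of all genes were (22 of 6224), 0.209% higher and 0.145% lower. At an unadjusted p under 0.05, 4 members were higher and 4 lower in limma, where 10.4% of all genes had such a p, 3.55% higher and 6.88% lower. The higher ones were *HES1*, *UPC2*, *HMG2* and *ARE1*, and the lower ones *CYB5*, *YEH1*, *HMG1* and *MVD1*. Of the 10 early genes 2 had a positive change, with a median of −0.22, and of the 15 late genes 9 did, with a median of 0.06.

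*HES1* had the smallest p of the members, with levels of −4.32, −4.14 and −4.42 in 5Mel and −5.26, −5.11 and −4.91 in Control. The arrays did not overlap, and the change was 0.80 (SE 0.13, adjusted p = 0.0711). *UPC2* had −2.52, −2.38 and −2.49 in 5Mel, against −3.02, −3.03 and −2.89 in Control, a change of 0.52 (SE 0.089, adjusted p = 0.0921), again without overlap. *HMG2* had 1.27, 1.23 and 1.44 in 5Mel and 0.92, 0.75 and 0.80 in Control, a change of 0.49 (SE 0.098, adjusted p = 0.147). These 3 genes were picked for the smallest p of the members, so their separate arrays add no support, and none passed. Without genes that were near background in both conditions *HES1* and *UPC2* were called, where 30 of 5724 genes were higher and 24 lower. In a fit of all 15 arrays 4 members were higher and 2 lower, where 103 of 6224 genes were higher and 160 lower.

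Under stress, 5MelH vs. H showed 0 members called, where 0% of all genes were. At an unadjusted p under 0.05, 2 members were higher (*ERG28*, *IDI1*) and 4 lower (*ARE2*, *UPC2*, *YEH1*, *ERG11*), where 12.5% of all genes had such a p, 8% higher and 4.5% lower. *ARE2* had levels of −1.09, −1.14 and −1.16 in 5MelH and −1.0, −0.97 and −0.98 in H, a change of −0.15 (SE 0.040, adjusted p = 0.326). *UPC2* had −3.75, −3.60 and −3.66 in 5MelH, against −3.51, −3.51 and −3.39 in H, a change of −0.20 (SE 0.060, adjusted p = 0.339). *ERG28* had 2.32, 2.44 and 2.47 in 5MelH and 2.25, 2.22 and 2.28 in H, a change of 0.16 (SE 0.053, adjusted p = 0.356). These 3 genes were picked for the smallest p of the members, so the lack of overlap between their arrays adds no support. Changes of the members in this comparison stayed between −0.21 and 0.18.

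**Figure D5:**
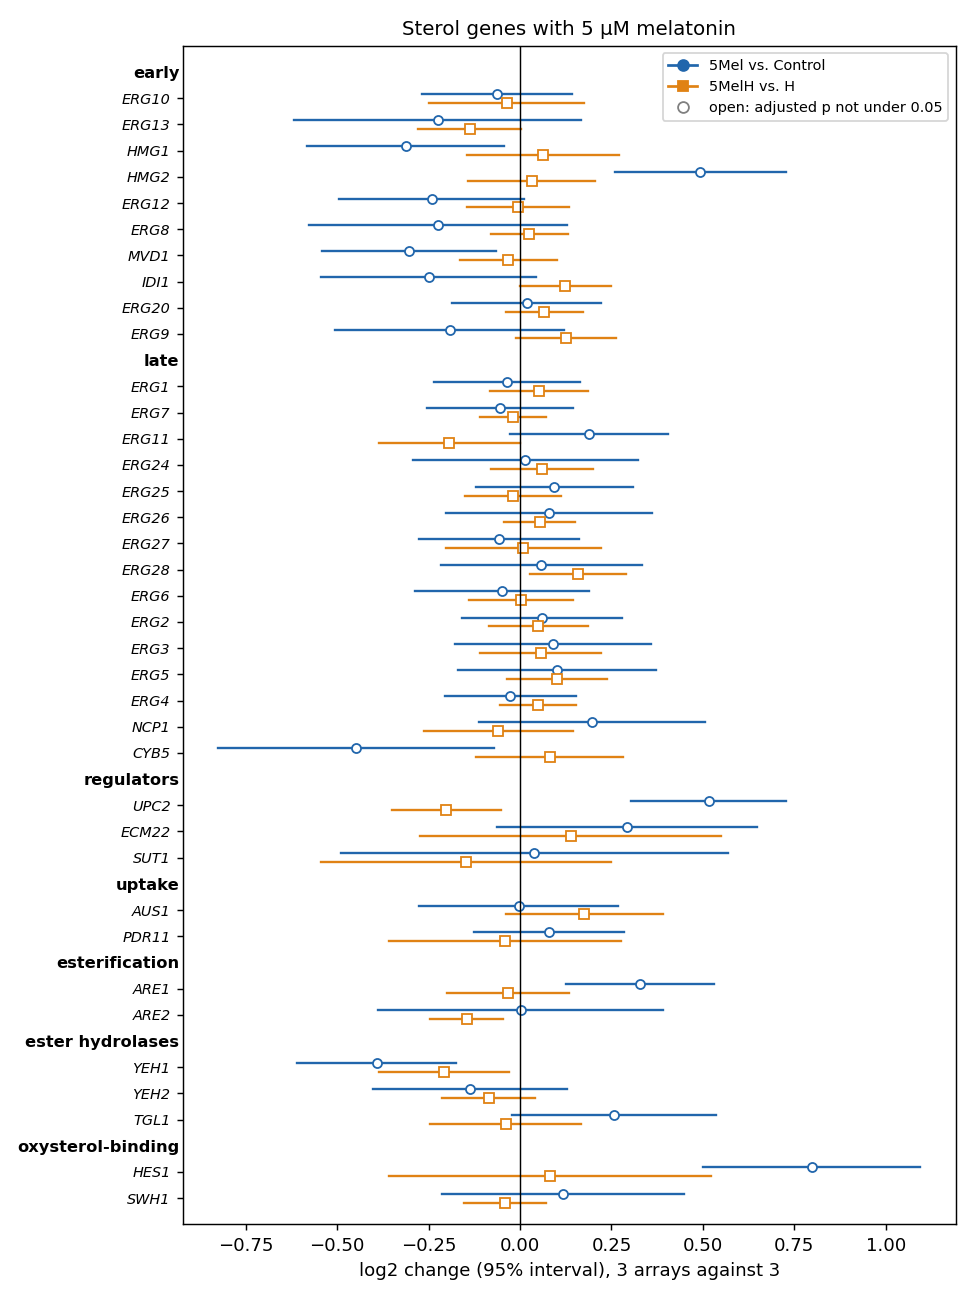
Log2 change of each of the 37 sterol genes, with its 95% interval, in 5Mel vs. Control (circles) and 5MelH vs. H (squares), 3 arrays against 3. All symbols are open, as 0 members passed the adjusted p in either comparison. *HES1*, *UPC2* and *HMG2* lie farthest to the right in 5Mel vs. Control, at 0.80, 0.52 and 0.49.

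The contrast (5MelH − H) − (5Mel − Control), fitted on 12 arrays, tests whether the change with melatonin differed between stressed and unstressed cells, and equally whether the change with stress differed with and without melatonin. Of the members, *UPC2* was called, where 0.37% of all genes were (23 of 6224), 0.177% positive and 0.193% negative. Its value was −0.72 (SE 0.099, adjusted p = 0.0158), from −0.20 in 5MelH vs. H and 0.52 in 5Mel vs. Control. The call was lost with the slide as a block (−0.67, adjusted p = 0.0510), on the spiked-in scale (−0.31, adjusted p = 0.289) and without each of Control replicates 1 and 2, H replicates 1, 2 and 3 and 5MelH replicate 3 (adjusted p of 0.0562 to 0.0727). At an unadjusted p under 0.05, 4 members were positive (*CYB5*, *HMG1*, *IDI1*, *MVD1*) and 5 negative (*UPC2*, *HES1*, *HMG2*, *ERG11*, *ARE1*), where 10.3% of all genes had such a p, 6.75% positive and 3.58% negative. *HES1* had −0.72 (SE 0.23, adjusted p = 0.301) and *HMG2* −0.46 (SE 0.12, adjusted p = 0.197).

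A dose of 25 μM before stress was compared with 0 and 5 μM. In 25MelH vs. H, 0 members were called, where 0% of all genes were, and 4 members higher (*IDI1*, *ERG28*, *ERG6*, *ERG2*) and 2 lower (*YEH2*, *ERG8*) had an unadjusted p under 0.05, where 15.9% of all genes did, 8.92% higher and 6.94% lower. *YEH2* had levels of −3.06, −3.15 and −3.11 in H, −3.22, −3.23 and −3.12 in 5MelH and −3.24, −3.27 and −3.22 in 25MelH. Its change in 25MelH vs. H was −0.14 (SE 0.039, adjusted p = 0.250), against 0.59 with another background correction. With that correction the median change of all genes in this comparison was 0.35, against 0.013 without it. *ERG28* had 2.25, 2.22 and 2.28 in H, 2.32, 2.44 and 2.47 in 5MelH and 2.38, 2.34 and 2.50 in 25MelH, a change of 0.16 (SE 0.052, adjusted p = 0.274). *ERG6* had 2.86, 2.91 and 3.04 in 25MelH and the H values given above, a change of 0.16 (SE 0.057, adjusted p = 0.279). The arrays of 25MelH and H did not overlap for these 3 genes, which adds no support, as they were picked for the smallest p.

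In 25MelH vs. 5MelH, 0 members were called, where 0% of all genes were, and 1 member, *ERG8*, was lower at an unadjusted p under 0.05, where 1.38% of all genes had such a p, 0.643% higher and 0.739% lower. *ERG8* had 1.85, 1.81 and 1.86 in 5MelH and 1.70, 1.74 and 1.58 in 25MelH, a change of −0.17 (SE 0.061, adjusted p = 1.00) without overlap. As *ERG8* was picked for its small p, its separate arrays add no support. *HES1* had −6.78, −6.72 and −6.39 in 25MelH, where 1 of 3 arrays was well above background. Across H, 5MelH and 25MelH the array medians of the early genes averaged 2.00 ± 0.053, 2.09 ± 0.087 and 2.07 ± 0.054, and those of the 2 uptake genes −3.45 ± 0.078, −3.38 ± 0.16 and −3.41 ± 0.20 (SD, n = 3 each), and the arrays of these 3 conditions overlapped in both.

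A further 41 genes of sterol regulation, transport and side branches gave a wider view of the stress comparisons. Of these, 10 were called higher and 17 lower in H vs. Control, with a median of −0.12, and 7 higher and 15 lower in 5MelH vs. 5Mel, with a median of −0.01. Over all genes the shares were 27.2% higher and 41.2% lower in H vs. Control, and 21.9% and 31% in 5MelH vs. 5Mel, so the counts in H vs. Control lay near the background. With arrays centred on their median these splits were 18 and 14, and 13 and 9, after quantile normalization 13 and 14, and 9 and 10, and on the spiked-in scale 1 and 40, and 1 and 37. The counts over all 6224 genes moved as well, to 2722 and 1687, and 2287 and 1307, with median centring. They were 2266 and 1817, and 1632 and 1316, after quantile normalization, and 20 and 5936, and 48 and 5230, on the spiked-in scale. The 17 transport and lipid transfer genes held 2 higher and 8 lower in H vs. Control, and 2 higher and 7 lower in 5MelH vs. 5Mel, among them *PRY1*, a secreted sterol-binding protein, at −1.73 and −1.77, and *LAM4*, of the sterol transfer proteins at membrane contacts, at −1.52 and −1.39. The 14 genes of regulation and turnover held 4 higher and 5 lower in H vs. Control, and 3 higher and 5 lower in 5MelH vs. 5Mel.

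In that list *ROX1*, the repressor of hypoxic genes, was higher by 2.50 and 2.08 (1.08 and 1.07 on the spiked-in scale), and *HAP1*, the haem-dependent activator that drives *HMG1* and *CYB5* as well as *ROX1* in air, changed by −1.55 and −2.09 (−2.97 and −3.10 on the spiked-in scale). *HRD1*, the ubiquitin ligase that degrades the Hmg2 protein, changed by −1.05 and −1.51 (−2.47 and −2.52 on that scale). In the same list *HRD3* had 0.32 and 0.19 (−1.10 and −0.82 on that scale). *UBC7* had −0.0051 and 0.044 (−1.43 and −0.97 on that scale). The 8 genes of isoprenoid side branches held 3 higher and 4 lower in H vs. Control, and 1 higher and 3 lower in 5MelH vs. 5Mel. Of the sterol acetylation pair, *ATF2*, a sterol acetyltransferase gene, was higher by 0.35 and 0.39, against −1.07 and −0.62 on the spiked-in scale. In 5Mel vs. Control 0 of the 41 were called.

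The study discusses *DAN1*, *FHN1* and *IZH4* beside its sterol genes, so that their direction here is not independent evidence. *IZH4*, a membrane protein gene, had 0.44, 0.51 and 0.11 in 5Mel and −0.58, −0.73 and −0.54 in Control, a change of 0.97 (SE 0.13, adjusted p = 0.0426), which was 0.69 and not called on the spiked-in scale (adjusted p = 0.178). It changed by −3.94 in H vs. Control and by −4.68 in 5MelH vs. 5Mel. *FHN1* had 0.87 (adjusted p = 0.0711) in 5Mel vs. Control. *DAN1*, a cell wall mannoprotein gene of anaerobic cells, was well above background on 3 of 3 5Mel arrays and 1 of 3 Control arrays. It was called higher in 5Mel vs. Control (adjusted p = 0.00512), but not with normexp as the background correction (0.86, adjusted p = 0.204), so no fold is given.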

How the data were processed

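The authors hybridised Cy3-labelled RNA to Agilent yeast arrays and extracted them with Feature Extraction 12.0.1.1, named in the labels' processing notes. The deposited scanner tables give a processed, background-subtracted signal, an intensity on a linear scale. A matrix of log2 values, deposited by the authors beside them, has each probe centred on its median over the arrays and served as an alternative with its columns paired by value (r of at least 0.99992, and at most 0.902 with any other table). Control spots and outlier spots were left out, 1 to 84 per array, and 0 spots were saturated. The log2 signals of the 2 spots of each of 6256 probes were averaged, each array had its 75th percentile subtracted, and for genes with several probes the probe with the highest mean was kept, leaving 6224 genes. *SWH1* is the member with a dropped probe. The number of arrays limits the precision.

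Conditions came from the labels. Pairs of conditions were compared on their 6 arrays with limma 3.58.1 under R 4.3.3 (lmFit, eBayes, two-sided, Benjamini-Hochberg over 6224 genes, threshold 0.05), and the contrast of contrasts on 12. The step was checked on simulated data. Alternatives were other scalings (array median, quantile, 7 spiked-in RNAs), normexp with an offset of 50, the removal of dim probes (not well above background on every array of either condition), a fit of all 15 arrays, blocks for replicate number or slide, fits within a slide, the matrix, and leaving out each array. The tables held no mean signal, so normexp used the median signal and median background. Figures were drawn with matplotlib 3.10.9.

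Values on each array are given for up to 3 members per role with the largest change among those called in H vs. Control, for members called in, or with the 3 smallest p of, each melatonin comparison, and for *UPC2*, *ARE1*, *ARE2*, *ERG11*, *HES1* and *SWH1*, which the study discusses. *IDI1*, *ERG24* and *IZH4* were added after their values were seen. The further sterol genes named singly were picked under no such rule. Among them *PRY1* and *HAP1* had the lowest and *ROX1* the highest change of their lists in H vs. Control. The members and lists were chosen with earlier results of these data known. Same-numbered arrays deviated together in 5Mel vs. Control (r of 0.106 to 0.280) and in 5MelH vs. H (0.143 to 0.307), over 0.1 in 3 of 3 pairs. The main fits did not use this pairing, and the replicate number was a block only in an alternative. No label states what a number shares. All arrays numbered 1 lay on slide 1 and all numbered 3 on slide 2, while those numbered 2 lay on either. Number and slide thus partly coincide, and what lies behind the pairing was not tested. Each slide held arrays of all 5 conditions.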

Additional observations from a re-analysis of the deposited data

Results flagged for a closer look

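The contrast of the *UPC2* changes with melatonin in stressed and unstressed cells passed the test in the fit as described, with a value of −0.72 on the log2 scale for (5MelH − H) − (5Mel − Control), with an adjusted p of 0.0158 in limma over 12 arrays. The 5Mel arrays, at −2.52, −2.38 and −2.49, were all above the Control arrays, at −3.02, −3.03 and −2.89, while the 5MelH arrays, at −3.75, −3.60 and −3.66, were all below the H arrays, at −3.51, −3.51 and −3.39. *UPC2* was flagged because it passed this contrast, so the separation of its arrays adds no support. Each melatonin comparison by itself did not pass, with adjusted p of 0.0921 and 0.339. The call was not firm: it was lost with the slide as a block (adjusted p = 0.0510), within either slide, on the spiked-in scale (−0.31, adjusted p = 0.289) and in 6 of 12 fits that left out 1 array.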

How the results depend on the processing

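Median centring, quantile normalization and normexp kept the counts of members called within 1.5 times, except that 6 members were lower in 5MelH vs. 5Mel with median centring. In that fit 1307 of all 6224 genes were lower. Spiked-in scaling gave 0 higher and 35 lower in H vs. Control, 2 higher and 24 lower in 5MelH vs. 5Mel, and 0 negative in the contrast of contrasts. Over all 6224 genes it gave 20 higher and 5936 lower, 48 higher and 5230 lower, and 0 negative. Within slide 1 there were 8 higher and 5 lower in H vs. Control and 6 lower in 5MelH vs. 5Mel, within slide 2 there were 3 higher and 6 lower in 5MelH vs. 5Mel, and with the slide as a block or within either slide 0 in the contrast of contrasts. The smaller slides leave fewer arrays, and 25MelH vs. 5MelH within slide 2 could not be fitted. In 5Mel vs. Control, 2 were higher without dim probes, where 30 of 5724 genes were. In the fit of all 15 arrays 4 were higher and 2 lower, where 103 of 6224 genes were higher and 160 lower. At an unadjusted p under 0.05 the higher and lower counts were 4 and 4 in 5Mel vs. Control, 2 and 4 in 5MelH vs. H, 4 and 2 in 25MelH vs. H, 0 and 1 in 25MelH vs. 5MelH and 4 and 5 in the contrast of contrasts.

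Leaving out 1 array gave 21 higher and 11 to 12 lower in H vs. Control, 13 to 18 higher and 6 to 13 lower in 5MelH vs. 5Mel, 0 to 1 negative in the contrast of contrasts and 0 in the other comparisons. The lowest counts in 5MelH vs. 5Mel, 6 and 8 lower, came without 5MelH replicates 1 and 2.

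With the replicate number as a block, 0 members were called in 5Mel vs. Control and in 5MelH vs. H, as without it, 21 were higher and 12 lower in H vs. Control, 16 higher and 11 lower in 5MelH vs. 5Mel, and *UPC2* in the contrast of contrasts had an adjusted p of 0.0466. The block moved no count by over 1.5 times.

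Signs turned for single genes as follows. Spiked-in scaling and median centring shift whole arrays, all genes alike. With spiked-in scaling the median change of all genes was −1.51 in H vs. Control, −1.06 in 5MelH vs. 5Mel and −0.29 in 25MelH vs. 5MelH. With normexp that median was 0.35 both in 25MelH vs. H and in 25MelH vs. 5MelH. Beyond these shifts the cause of a turned sign was not tested. With spiked-in scaling, H vs. Control had −0.28 for *ARE2*, −0.29 for *HMG1*, −0.64 for *ERG10*, −0.75 for *ERG8*, −0.34 for *CYB5*, −0.57 for *ERG2*, −0.78 for *ERG7* and −0.95 for *ERG11*, and 5MelH vs. 5Mel had −0.022 for *ARE2*, −0.21 for *ERG10*, −0.090 for *ERG8*, −0.17 for *ERG2*, −0.33 for *ERG7* and −0.92 for *ERG11*. With quantile normalization, H vs. Control had 0.10 for *UPC2*, 0.012 for *YEH2* and 0.024 for *ARE1*, and 5MelH vs. 5Mel had 0.069 for *YEH2* and −0.046 for *ERG11*. In H vs. Control median centring gave 0.0026 for *SWH1* and 0.23 for *ARE1*, and *ARE1* had 0.019 within slide 1 and −0.050 to 0.0073 with 1 array left out, its only positive value without H replicate 3. *ERG11* had −0.067 within slide 2 in 5MelH vs. 5Mel. With normexp, *YEH2* had 0.59 in 25MelH vs. H, and *HES1* had 1.41 and *ERG6* −0.0042 in 25MelH vs. 5MelH, where spiked-in scaling gave −0.12 for *ERG6*.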
